A study of Mus musculus with 5 samples.

Results

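ES R1, a mouse embryonic stem (ES) cell line, was profiled 1 cell per well on 3 plates, and its transcriptome is described here over 253 wells. These are the wells of the plates labelled ES R1 that held at least 1000 reads on gene rows, 253 of 288 ES wells and 253 of the 431 wells of all 5 plates that met the same minimum. ES replicate 1 gave 93 of them, ES replicate 2 gave 66 and ES replicate 3 gave 94. The plate was the replicate, since wells of 1 plate share a pool and a PCR.

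The study compared 3 cell types by tagged reverse transcription, in which each cell's cDNA receives a well barcode by template switching before all wells of a plate are pooled. The labels call the ES R1 cells spheres derived from embryonic stem cells and give neither a genotype nor a treatment for any group. Neuro2A, a mouse neuroblastoma line, and MEF, mouse embryonic fibroblasts, filled 1 plate each and kept 86 and 92 wells. MEF and Neuro2A were grown in a serum medium, and the ES cells in the medium of an earlier study, so cell type and medium cannot be told apart. Nothing in the labels shows separate cultures behind the 3 ES plates, so a p-value here reflects the spread of these plates alone.

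Mouse ES cells are known for a network of transcription factors that hold one another active, with Pou5f1, Sox2 and Nanog at its core and Esrrb, Tcfcp2l1, Klf2, Klf4 and Tbx3 around them. They divide fast, with a short first gap phase, and they read leukaemia inhibitory factor, BMP and autocrine FGF signals. Their chromatin carries an active DNA methylation machinery and the Polycomb repressive complexes.

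The kept wells of ES replicates 1, 2 and 3 held 11432543, 262517 and 2134248 gene reads, with 101130, 2520.5 and 17003 in the median well. Neuro2A held 3155092 and MEF 2930884. Levels are counts per 1000000 gene reads (CPM) after TMM scaling. The floor used for folds against 0 was 3 reads, or 0.242, 8.71 and 1.37 CPM for ES replicates 1, 2 and 3, 0.966 for Neuro2A and 1.52 for MEF. A single well gave 25.9% of the gene reads of ES replicate 2. ES replicate 3 held fibroblast reads at matching barcodes: over 199 genes of MEF, the median gene had 10.8% of its MEF reads in that plate, and 0% in ES replicates 1 and 2. These genes had at least 100 CPM in MEF and at least 10 times the level of ES replicates 1 and 2 and Neuro2A. The choice itself thus kept ES replicates 1 and 2 low, and their 0% is no separate result. MEF in turn held 9.43% of Neuro2A's reads over 134 genes. The same 96 barcodes carried reads on all 5 plates. Intervals and floors cover counting error only, since the protocol names no molecular identifiers and PCR copies of 1 molecule are counted apart.

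The 7 ES markers were high in every ES plate and at or near 0 elsewhere. Dppa5, a small RNA-binding protein of early embryos and germ cells, stood at 2682, 807 and 5015 CPM in ES replicates 1, 2 and 3, with 1 read in Neuro2A and 0 in MEF. Sall4, a zinc-finger factor that supports Pou5f1, stood at 1490.1, 1367 and 870.0 CPM, with 0 reads in both other plates. Dnmt3l, a cofactor of the de novo DNA methyltransferases, stood at 1091, 668 and 1016 CPM, again with 0 reads in both. No ES plate came near the other 2 cell types for any of these genes, and the spread within ES was widest for Dppa5.

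Zfp42, the Rex1 factor of naive ES cells, stood at 828, 404 and 1037 CPM with 0 reads in Neuro2A and MEF. Sox2, the partner of Pou5f1 on DNA, stood at 1121, 769 and 445 CPM, with 0 reads in Neuro2A and 1.01 CPM in MEF. Tdgf1, the Nodal co-receptor Cripto, stood at 721, 874 and 502 CPM, with the same 1.01 CPM in MEF. These genes kept within a few fold among the ES plates. Nanog, a homeodomain factor known to fluctuate between ES cells, stood at 786, 116.1 and 431 CPM, with 0 reads in both other plates.

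Against the 3-read floor of MEF, the ES mean of Sall4, 1242 ± 328 CPM (SD, n = 3), was at least 820-fold higher, that of Dnmt3l at least 610-fold and that of Zfp42 at least 499-fold. Sox2, with an ES mean of 779 ± 338 CPM (SD, n = 3), was 771-fold above MEF, with a 95% counting interval of 213 to 6365. In edgeR's quasi-likelihood test of ES against the mean of the other cell types, the adjusted p was 0.0572 for Sall4, Dnmt3l, Zfp42, Sox2 and Tdgf1, 0.0713 for Dppa5 and 0.0786 for Nanog. None was therefore called at 0.05, although the groups did not overlap.

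That test called 0 genes in either direction among 12271 tested. Only the ES plates were replicated, which left 2 residual degrees of freedom, and the common dispersion was 1.50. At an unadjusted p under 0.05 it placed 1200 genes higher in ES, 9.78% of those tested, and 439 lower, 3.58%. DESeq2, with the same contrast, called 867 higher, 7.84% of the 11052 it gave an adjusted p, and 92 lower, 0.832%, while limma-voom called 0 either way. The contrast averages the logs of Neuro2A and MEF, so a gene at 0 in Neuro2A can be called higher in ES although MEF exceeds it. Col5a2, a fibrillar collagen with 0 reads in ES replicates 1 and 2, 196 CPM in ES replicate 3, 0 reads in Neuro2A and 1873 CPM in MEF, is such a gene. The descriptions below therefore count genes whose 3 ES plates all lay above, or all below, both other plates. This held for 1865 genes above, 15.2% of those tested, and for 2037 below, 16.6%. With library size alone in place of TMM the split was 2421 above (19.7%) and 1405 below (11.4%). A rule over fewer plates is easier to meet. Without ES replicate 1, 2 or 3 the shares above were 21.0%, 20.0% and 19.2%, and those below 20.3%, 20.5% and 22.6%.

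**Figure D1:**
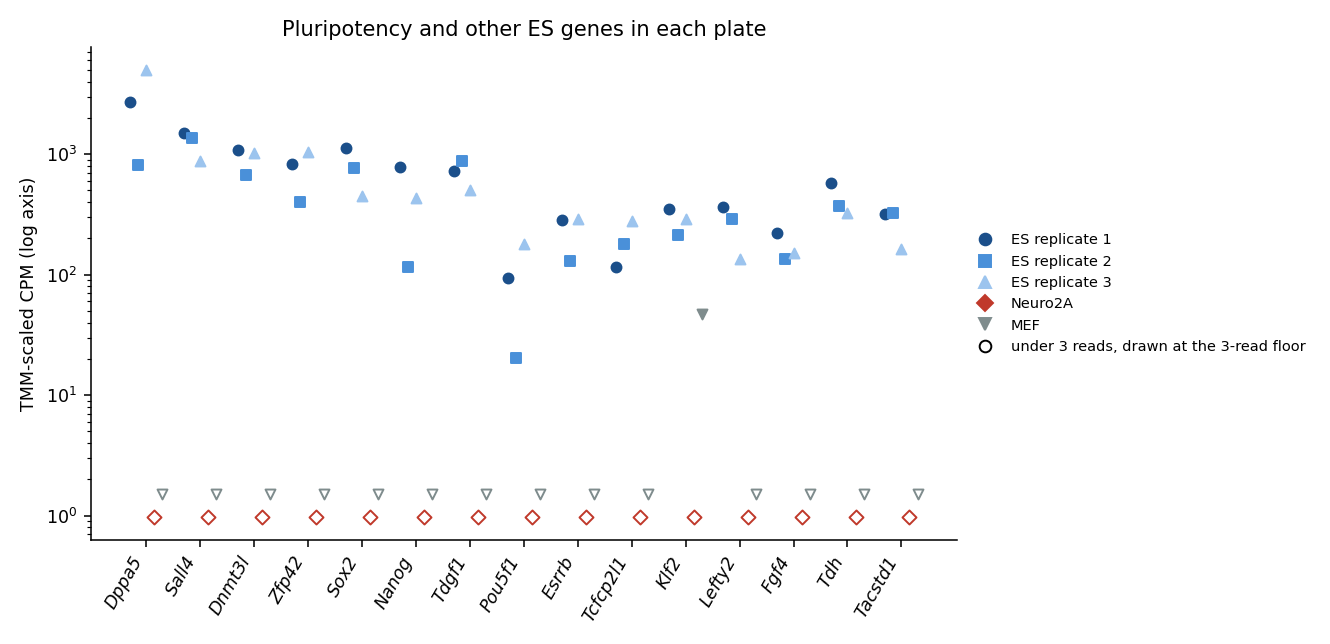
Levels of the 7 markers and 8 further ES genes in each plate, in TMM-scaled CPM on a log axis, with 1 point per plate and open symbols at the 3-read floor. Solid ES points stand above the Neuro2A and MEF points for every gene shown, and Klf2 is the one of them with more than 3 reads in MEF.

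The upstream sequences of 2 markers are shown because they hold the letters through which the ES factors are known to bind. RefSeq start windows were found for 5 of the 7 markers. In the 250 bases upstream of each start, the Sox-Oct composite (CATTGT, any 1 base, then ATGCAAA), searched on both strands, was found in 2 of 32851 windows (0.00609%), both of them starts of Nanog. This string leaves 1 base free and admits no other variant, which by itself makes matches few. The octamer ATGCAAAT was found in 526 windows (1.60%), among which Zfp42 was the one marker. The last 200 bases before the start follow, 5′ to 3′ in the direction of transcription, from RefSeq on GRCm38.p6, for Nanog at chr6:122707289-122707488 on the plus strand and for Zfp42 at chr8:43307010-43307209 on the minus strand. Capitals mark the match, which in both cases reads as the reverse complement and begins 75 bases before the Nanog start and 186 before that of Zfp42. The build behind the deposited files is not given in the sources used here, and a match is a description of letters only.
Nanog: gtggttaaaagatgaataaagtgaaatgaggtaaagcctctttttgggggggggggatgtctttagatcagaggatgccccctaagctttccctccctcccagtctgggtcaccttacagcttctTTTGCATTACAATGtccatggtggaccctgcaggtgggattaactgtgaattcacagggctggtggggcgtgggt
Zfp42: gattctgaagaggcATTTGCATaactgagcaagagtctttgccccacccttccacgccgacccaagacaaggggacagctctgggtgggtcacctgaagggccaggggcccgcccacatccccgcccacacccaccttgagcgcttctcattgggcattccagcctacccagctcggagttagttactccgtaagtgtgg

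The markers were also seen cell by cell. With every well thinned to 1000 gene reads, at least 1 of the 7 was read in 84 of 93 wells of ES replicate 1, 64 of 66 of ES replicate 2 and 90 of 94 of ES replicate 3. These shares were 90.3% (exact 95% binomial interval 82.4 to 95.5), 97.0% (89.5 to 99.6) and 95.7% (89.5 to 98.8). In Neuro2A the count was 0 of 86 wells, for which the exact upper limit is 4.20% and 3 counts of the total are 3.49%, and in MEF it was 1 of 92. The median ES well showed 2, 3 and 3 different markers at that depth. With all reads, 91, 66 and 94 wells held a marker read and 29, 5 and 34 held all 7, against 1 Neuro2A and 2 MEF wells with any. Nearly every kept ES well thus carried a marker read, and nearly no other well did.

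**Figure D2:**
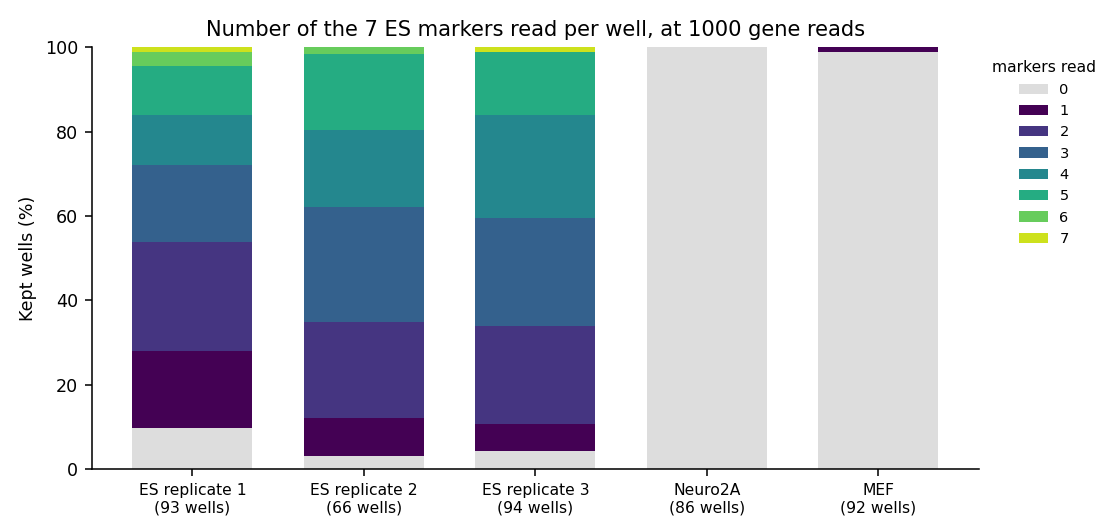
Share of kept wells (%) by the number of the 7 ES markers read, each well thinned to 1000 gene reads, with 1 stacked bar per plate. Grey wells with no marker make up 9, 2 and 4 wells of the ES plates, all 86 of Neuro2A and 91 of 92 of MEF.

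Single markers were read in fewer wells. Dppa5 was read at 1000 reads in 66.7% (56.1 to 76.1), 60.6% (47.8 to 72.4) and 86.2% (77.5 to 92.4) of the wells of ES replicates 1, 2 and 3. Nanog was read in 29.0%, 19.7% and 24.5% of them, and in 62.4%, 34.8% and 66.0% with all reads. Pou5f1, the central POU-domain factor, was read in 5.38%, 1.52% and 17.0% at 1000 reads and in 46.2%, 7.58% and 57.4% with all reads. At this depth a well without a read of these genes cannot be told from a well without the transcript. Tdgf1 and Sox2 were read most often in ES replicate 2, at 62.1% and 51.5%, and Zfp42 and Dnmt3l in ES replicate 3, at 58.5% and 48.9%.

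Of 25 tested pluripotency transcription factors, 22 (88%) lay above both other plates in every ES plate and 0 below. All tested genes gave 15.2% and 16.6%. The stricter rule of 10-fold described further on was met by 13 of the 26 with a row, against 1.04% of all genes. Over the 25, the median log2 ratio of the ES mean to the higher of the other plates, all at no less than the floor, was 5.54, against -0.71 over all tested genes. Sox2, Nanog, Sall4 and Zfp42, already given as markers, are counted in the 25, the 22 and the 13. The counts above and below were 23 (92%) and 0 without ES replicate 3. Pou5f1 stood at 94.0, 20.3 and 180 CPM in ES replicates 1, 2 and 3 and at 0 reads elsewhere. Reads of Pou5f1 and its near-identical pseudogenes could be divided among rows by the counting, so its level is uncertain.

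The naive-state factors were present in all ES plates. Esrrb, an orphan nuclear receptor, stood at 285, 131 and 291 CPM, with 0 reads in Neuro2A and 0.505 CPM in MEF. Tcfcp2l1, a target of leukaemia inhibitory factor, stood at 115, 180 and 280 CPM, with 0 reads in both. Tbx3, a T-box factor, stood at 120, 441 and 345 CPM, against 2.57 in Neuro2A and 1.01 in MEF. The ES values of these 3 genes lay far from the others. Nr0b1, Utf1 and Zscan10, further members of the network, showed the same order, with all ES plates between 58.1 and 232 CPM and the other plates at or below 0.505 CPM.

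Krüppel-like factors were less particular to ES. Klf2 stood at 348, 212 and 290 CPM, with 0 reads in Neuro2A and 47.5 CPM in MEF. Klf4 stood at 309, 116.1 and 209 CPM, against 20.9 in Neuro2A and 97.0 in MEF, a small gap in ES replicate 2. Klf5 differed between the ES plates themselves, at 67.1, 8.71 and 1157 CPM, while Neuro2A had 30.9 and MEF 35.4. It was read in 47.9% of the wells of ES replicate 3 at 1000 reads, against 1.08% and 1.52% in replicates 1 and 2. Otx2, which is linked to exit from the naive state, stood at 65.2, 40.6 and 37.5 CPM with 0 reads elsewhere. Prdm14 and Nr5a2 were low: Nr5a2 reached 1.53, 29.0 and 13.7 CPM, and Prdm14 had reads in ES replicate 1 alone, at 0.485 CPM.

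Among germline and chromatin proteins, 18 of 28 tested (64.3%) lay above both other plates in every ES plate and 0 below. The shares over all tested genes were 15.2% and 16.6%. The median log2 ratio of the list was 1.58, and the markers Dppa5 and Dnmt3l are counted among the 18. Dppa4, a chromatin protein of early embryos, stood at 573, 186 and 95.1 CPM, with 0 reads in both other plates, and its neighbour Dppa2 at 61.2, 55.2 and 52.6 CPM. L1td1, an RNA-binding protein derived from a transposon, stood at 456, 151 and 678 CPM with 0 reads elsewhere. Lin28, which blocks let-7 maturation, stood at 329, 81.3 and 121 CPM, against 57.9 in Neuro2A and 2.02 in MEF. Some other germline genes were each read in 1 ES plate alone. Dppa3, Ddx4 and Mov10l1 were read in ES replicate 2 alone, the plate where 1 read weighs most, at 23.2, 14.5 and 2.90 CPM, and Dazl in ES replicate 3 alone, at 40.2 CPM.

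DNA methylation genes split by member. Dnmt3b stood at 801, 586 and 333 CPM, against 256 in Neuro2A and 38.4 in MEF. Dnmt3a stood at 25.0, 180 and 58.1 CPM, against 173 and 308. Dnmt1, the maintenance enzyme, overlapped the other plates at 66.2, 134 and 229 CPM, while its partner Uhrf1 stood at 338, 122 and 266 CPM, against 30.3 and 3.03. Tet1, listed under its older symbol Cxxc6 and known to oxidize 5-methylcytosine, stood at 150, 87.1 and 239 CPM, with 0 reads in Neuro2A and 4.04 CPM in MEF. The Polycomb genes Suz12, Eed, Mtf2 and Phc1 lay above in every ES plate, Suz12 at 555, 401 and 284 CPM against 114 and 60.1. The catalytic subunit Ezh2 did not, at 105, 105 and 101 CPM against 69.5 in Neuro2A and 109 in MEF.

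Of 22 tested signals and receptors, 8 (36.4%) lay above and 4 (18.2%) below both other plates in every ES plate. Over all tested genes 15.2% and 16.6% did. The median log2 ratio of the list was 0.17, and the marker Tdgf1 is counted among the 8. Lefty2, a secreted Nodal inhibitor, stood at 365, 290 and 134 CPM, Fgf4, the autocrine FGF of ES cells, at 222, 134 and 150 CPM, and Gdf3, a TGF-beta ligand, at 37.6, 46.4 and 141 CPM, all with 0 reads in Neuro2A and MEF. Trh, the thyrotropin-releasing hormone precursor, stood at 391.5, 302 and 766 CPM, also with 0 reads elsewhere. Spp1, osteopontin, and Mdk, midkine, were high in ES but also in MEF: Spp1 stood at 1481, 1138 and 427 CPM against 1666 in MEF and 0 reads in Neuro2A. The 4 genes below were Stat3, Id1, Id3 and Dusp6. Dusp6, a phosphatase induced by FGF signalling, stood at 191, 122 and 293 CPM, against 643 in Neuro2A and 1065 in MEF. Stat3, the transcription factor downstream of leukaemia inhibitory factor, stood at 270, 488 and 325 CPM, against 650 and 1011.

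Epithelial genes included 4 of 14 tested (28.6%) above in every ES plate and 0 below, against 15.2% and 16.6% of all tested genes. Without ES replicate 1 there were 6 (42.9%) and 2 (14.3%), against 21.0% and 20.3% of all. Cdh1, E-cadherin, stood at 105, 142 and 92.4 CPM with 0 reads in both other plates. Tacstd1, the older symbol of the adhesion molecule Epcam, stood at 322, 322 and 165 CPM, with 0 reads in Neuro2A and 1.01 CPM in MEF. Keratins were low and differed between the ES plates. Krt8 stood at 1.21, 0 and 15.5 CPM, and Krt18 had 26.1 CPM in ES replicate 2, 0.457 in replicate 3 and 0 reads in replicate 1. Krt19 had under 3 reads in ES replicates 1 and 2. In replicate 3 the log2 ratio of Krt18, set to the floor, to Krt19 was -4.06. Ctnnb1, beta-catenin, overlapped at 711, 636 and 762 CPM, against 659 in Neuro2A and 627 in MEF.

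Among metabolic genes Tdh, Upp1 and Gldc had no read outside ES. Tdh, threonine dehydrogenase, which feeds threonine into one-carbon metabolism in mouse ES cells, stood at 571, 374 and 326 CPM with 0 reads in both other plates, at least 280-fold higher by its ES mean. Gldc, the glycine decarboxylase, stood at 142, 273 and 81.4 CPM, and Upp1, uridine phosphorylase, at 294, 314 and 462 CPM, both with 0 reads elsewhere. Slc2a3, a glucose transporter, stood at 576, 528 and 352 CPM, against 35.4 in Neuro2A and 34.3 in MEF. Of 27 tested genes of this list 12 (44.4%) lay above and 1 (3.70%) below, against 15.2% and 16.6% of all tested genes. The list took 0.976 ± 0.0886% of ES gene reads (SD, n = 3), against 0.321% in Neuro2A and 0.310% in MEF. Without ES replicate 2 the 12 became 19 (70.4%), and with library size alone 17 (63.0%), where all genes gave 20.0% and 19.7%. The 1 below was Mthfd2, a mitochondrial folate enzyme, at 57.7, 107 and 27.0 CPM, against 343 and 146. Ldha and Pdha1 overlapped the other plates.

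Of 36 cell cycle and replication genes, 20 (55.6%) lay above and 2 (5.56%) below, against 15.2% and 16.6% of all tested genes. The median log2 ratio of the list was 0.94. Cdc6, a loader of the replicative helicase, stood at 86.9, 75.5 and 71.3 CPM with 0 reads in both other plates, and Cdt1 at 195, 235 and 219 CPM, against 20.6 and 3.54. Cdk2 stood at 298, 221 and 125 CPM, against 8.37 in Neuro2A and 3.03 in MEF. Ccne1, cyclin E1, stood at 127, 78.4 and 105 CPM, against 0.322 CPM in Neuro2A and 0 reads in MEF. Ccne2, its relative, was at 0 in ES replicates 1 and 2 and at 24.7 CPM in replicate 3, against 427 in Neuro2A. Both genes below act at the exit from the first gap phase. Rb1, the retinoblastoma protein that holds it back, stood at 1.21, 14.5 and 17.4 CPM, against 81.8 and 103, and Ccnd1, cyclin D1, which promotes it, at 5.49, 72.6 and 30.2 CPM, against 151 and 153. Mcm2 to Mcm7 all lay above in every ES plate, while Mki67, a marker of cycling cells in general, overlapped, at 93.2, 87.1 and 135 CPM against 206 in Neuro2A and 104 in MEF.

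**Figure D3:**
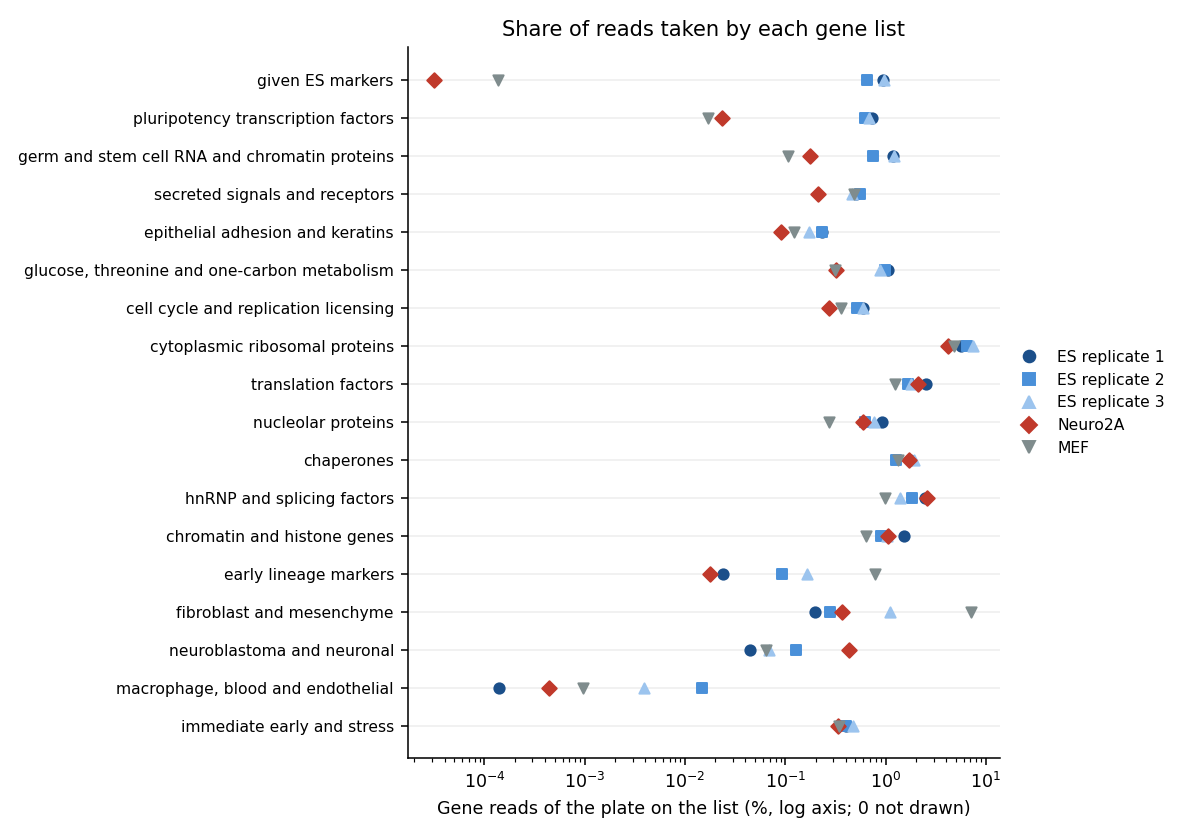
Share of each plate's gene reads (%, log axis) on each gene list, with 1 point per plate. The ES markers and pluripotency factors separate the 3 ES plates from Neuro2A and MEF, ribosomal proteins take 5.61% to 7.39% of ES reads, and the fibroblast list takes 1.10% in ES replicate 3 against 0.199% and 0.276% in replicates 1 and 2.

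The most read genes were those of translation. Cytoplasmic ribosomal proteins took 6.51 ± 0.890% of ES gene reads (SD, n = 3), against 4.20% in Neuro2A and 4.81% in MEF. These shares are of reads without TMM scaling. In TMM-scaled CPM the median log2 ratio of the ES mean to the higher of the other plates was -0.25. The ratio was above 0 for 32 of 78 genes, and its median over all tested genes was -0.71. All 78 with a row reached 10 CPM in every ES plate, as did 33.6% of all genes. Of the 78, 17 (21.8%) lay above both other plates and 6 (7.69%) below, against 15.2% and 16.6% of all tested genes. With library size alone these counts were 29 (37.2%) and 1 (1.28%), against 19.7% and 11.4% of all. Those below were 10 (12.8%) without ES replicate 1 and 11 (14.1%) without replicate 3, against 20.3% and 22.6% of all. Rpl32 was the steadiest of these ribosomal proteins in level, at 2529, 2505 and 2478 CPM, below both other plates, which had 4213 and 4052 CPM. Rps21 stood above, at 400, 316 and 1099 CPM, against 64.7 and 112. Of the 25 genes with the highest ES mean, Dppa5 was the only marker, at 2835 ± 2108 CPM (SD, n = 3), among ribosomal proteins, chaperones, Ptma, Rtn4, G3bp2, Tardbp and 3 predicted models.

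Other general lists split both ways. Among 28 chaperones 3 lay above and 6 below, among 31 hnRNP and splicing genes 1 and 5, among 31 translation factors 3 and 4, and among 20 nucleolar genes 4 and 1. In that order the shares were 10.7% and 21.4%, 3.23% and 16.1%, 9.68% and 12.9%, and 20% and 5%. All tested genes gave 15.2% and 16.6%, or 19.7% and 11.4% with library size alone. The median log2 ratio was -0.61, -0.48, -0.42 and 0.21, against -0.71 over all tested genes. These directions depended on scaling: with library size alone the chaperones split 8 and 4, the hnRNP and splicing genes 4 and 1, the translation factors 10 and 2, and the nucleolar genes 12 and 0. Counts also rose when a plate was left out, as they did over all genes. Without ES replicate 2, 10 nucleolar genes (50%), 7 chaperones (25%) and 7 translation factors (22.6%) lay above, against 20.0% of all tested genes. Without ES replicate 1, 11 hnRNP and splicing genes (35.5%) and 8 translation factors (25.8%) lay below, against 20.3% of all. Without ES replicate 3, 6 translation factors (19.4%) lay above, against 19.2% of all. The chaperones above were Hsp90aa1, Hspa14 and Stip1 of the cytosol. Hspa5, Hsp90b1 and P4hb, chaperones of the endoplasmic reticulum, were among those below, Hspa5 at 146, 226 and 541 CPM against 875 in Neuro2A and 1936 in MEF. H2afz, a histone variant, stood above at 1266, 740 and 1426 CPM, against 486 and 319. H3f3b, the replication-independent histone H3.3, stood below at 668, 560 and 829 CPM, against 2326 and 1237. Set, Hdac1 and Lmnb1 lay above in every ES plate. Of 32 tested chromatin and histone genes 7 (21.9%) lay above and 5 (15.6%) below, against 15.2% and 16.6% of all tested genes. Their median log2 ratio was -0.61. With library size alone 10 lay above and 3 below.

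Most early lineage markers were low. Of 29 listed symbols 14 had a row, and 4 genes (28.6%) reached 10 CPM in every ES plate, against 33.6% of all genes. T, Eomes, Gata4, Kdr, Hnf4a and Fgf5 each had at most 14.5 CPM in any ES plate, and Fgf5, a gene of the primed epiblast, was at 0 in all 3. The 4 were Otx2, Lama1, Sparc and Lamb1-1. Lama1, a laminin of primitive endoderm and basement membrane, stood at 51.5, 63.9 and 49.8 CPM with 0 reads elsewhere. Lamb1-1, another laminin chain, stood at 20.4, 11.6 and 76.35 CPM, with 0 reads in Neuro2A and 428 CPM in MEF. Sparc, a matrix protein also on the fibroblast list, is given with that list. Of 24 tested neuronal genes 0 lay above and 13 (54.2%) below, against 15.2% and 16.6% of all tested genes. With carried-over reads subtracted the 13 became 4 (16.7%), near the 13.4% of all genes. Insm1, a neuroendocrine factor, was at 0 in every ES plate, against 164 CPM in Neuro2A. Stmn2 did not follow the list, at 269, 343 and 208 CPM, against 336 in Neuro2A and 54.5 in MEF. Blood and endothelial genes took 0.00014%, 0.0149% and 0.00389% of the gene reads of ES replicates 1, 2 and 3. In Neuro2A they took 0.000444% and in MEF 0.000955%, less than in ES replicates 2 and 3.

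The fibroblast list moved with ES replicate 3. Of its 35 genes 0 lay above and 3 (8.57%) below in all 3 ES plates, and 14 (40%) lay below without ES replicate 3. Over all tested genes the shares below were 16.6% and 22.6%. Col1a2, a fibrillar collagen, had 0 reads in ES replicate 1, 17.4 CPM in replicate 2 and 648 CPM in replicate 3, against 8039 in MEF. Thbs1 was at 0 in the first pair and at 1079 CPM in replicate 3, against 12051 in MEF. With its reads at 10.8% of MEF's over fibroblast genes in general, ES replicate 3 cannot show whether these cells express such genes, and the part of carried-over reads in any single gene was not tested. Fn1, fibronectin, and Vim, vimentin, had higher levels than Col1a2 and Thbs1 in ES replicates 1 and 2. Fn1 stood at 673, 801 and 915 CPM, and Vim at 962, 383 and 956 CPM. All 35 genes still had an ES mean below the higher of the other plates, with log2 ratios from -5.56 to -2.59. Sparc stood at 81.0, 514 and 1226 CPM, against 116 in Neuro2A and 9732 in MEF.

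Immediate early and stress genes included 7 of 23 below (30.4%) and 3 above (13.04%), against 16.6% and 15.2% of all tested genes. With library size alone 3 lay each way (13.04%), against 11.4% below and 19.7% above over all tested genes. Myc stood at 44.3, 66.8 and 135 CPM, against 803 in Neuro2A and 602 in MEF, and Fos at 71.5, 95.8 and 163 CPM, against 281 and 272. The metallothioneins, metal-binding proteins, stood above: Mt1 at 770, 711 and 1368 CPM against 0.966 and 549, and Mt2 at 1337, 885 and 1186 CPM against 0 reads in Neuro2A and 97.0 CPM in MEF.

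A stricter description took genes with at least 30 CPM in every ES plate and at least 10 times the higher of the other plates in each of them. It held 162 genes, 1.04% of the 15585 read in kept wells. Of these, 74 had 0 reads in both other plates, 45 reached 100 CPM in every ES plate and 15 exceeded 100-fold in their lowest ES plate. DESeq2 called all 162, against 7.84% called higher among all genes it gave an adjusted p, and edgeR called none. The same plates chose the 162, so the DESeq2 calls are no separate support. The lists used here held 34 of them, and 11 were predicted models. Without ES replicate 1 there were 218, without replicate 2 there were 270 and without replicate 3 there were 258, a rule over fewer plates being easier to meet. Beyond the markers, the genes that led by their lowest ES plate included Tdh, Trh, Upp1, L1td1, Lefty2, Tacstd1 and Mybl2, with Gsta4, Ifitm1, Spink3 and Cenpm.

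Mybl2, a Myb factor of cycling progenitors, stood at 151, 197 and 212 CPM, with 0 reads in Neuro2A and 0.505 CPM in MEF. Gsta4, a glutathione transferase, stood at 471, 305 and 342 CPM, with 1.52 CPM in MEF. Ifitm1, an interferon-induced membrane protein also known from the early germline, stood at 739, 409 and 445 CPM, against 3.54 and 1.01. The 3 ES plates were within a few fold for each. Spink3, a secreted protease inhibitor, stood at 319, 168 and 183 CPM with 0 reads elsewhere, and Cenpm, a centromere protein, at 148, 482 and 175 CPM with 1.01 CPM in MEF.

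In the opposite direction, 74 genes, 0.475% of 15585, had at least 100 CPM in both Neuro2A and MEF and were at least 10 times lower in ES replicates 1 and 2. All 74 were also below both in ES replicate 3, but only 11 of them by 10-fold. DESeq2 called 14 of the 74, against 0.832% called lower among all genes it gave an adjusted p. The same plates chose the 74, so these calls are no separate support. Of the 74, 21 had 0 reads in ES replicates 1 and 2. Efna5, an ephrin ligand, had 0 reads in both, 64.9 CPM in ES replicate 3, 749 in Neuro2A and 800.1 in MEF. Its reads in ES replicate 3 were 8.96% of those in MEF, and the part of carried-over reads in them was not tested. Camk2d, a calcium-dependent kinase, showed the same order, at 0, 0 and 94.6 CPM against 586 and 1055. Id3, an inhibitor of differentiation factors and a BMP target, stood at 1.37, 5.81 and 139 CPM, against 260 and 1208. Pcdha@, the protocadherin alpha cluster, entered with 4675 CPM in Neuro2A and 571 in MEF, where its reads were 7.78% of Neuro2A's. The median over 134 Neuro2A genes was 9.43%. With that median share subtracted MEF held 0 reads of Pcdha@, but the origin of its reads in MEF was not tested. Without ES replicate 1 the rule gave 118 genes, with library size alone 31, and with carried-over reads subtracted 49.

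Related genes were compared by their ratio within a plate, so that depth cancels, and across plates, so that length cancels. Of 32 pairs 31 had both rows, and 25 had a ratio or a bound in all 5 plates. In 14 of those 25 the ratio in every ES plate exceeded that in both other plates, in 0 it was lower, and in 11 the plates overlapped or a bound left the order unknown. The pairs were listed with the ES form first, so the direction is no finding. The log2 ratio of Dnmt3b to Dnmt3a was 5.00, 1.70 and 2.52 in ES replicates 1, 2 and 3, against 0.56 in Neuro2A and -3.00 in MEF. That of Cxxc6 (Tet1) to E130014J05Rik (Tet2) was 0.06, 0.45 and 1.96, against at most -3.06 in Neuro2A and -4.19 in MEF. That of Mycn to Myc was 0.79, 1.43 and -1.70, against -4.16 and -6.63, so the ES plates shared the order but not the sign. The ratio of Actb to Actg1, the cytoplasmic actins, was 3.16, 2.62 and 2.98, against 0.53 in Neuro2A and 2.14 in MEF. Klf4 to Klf6, Shmt1 to Shmt2 and Rbbp7 to Rbbp4 overlapped.

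**Figure D4:**
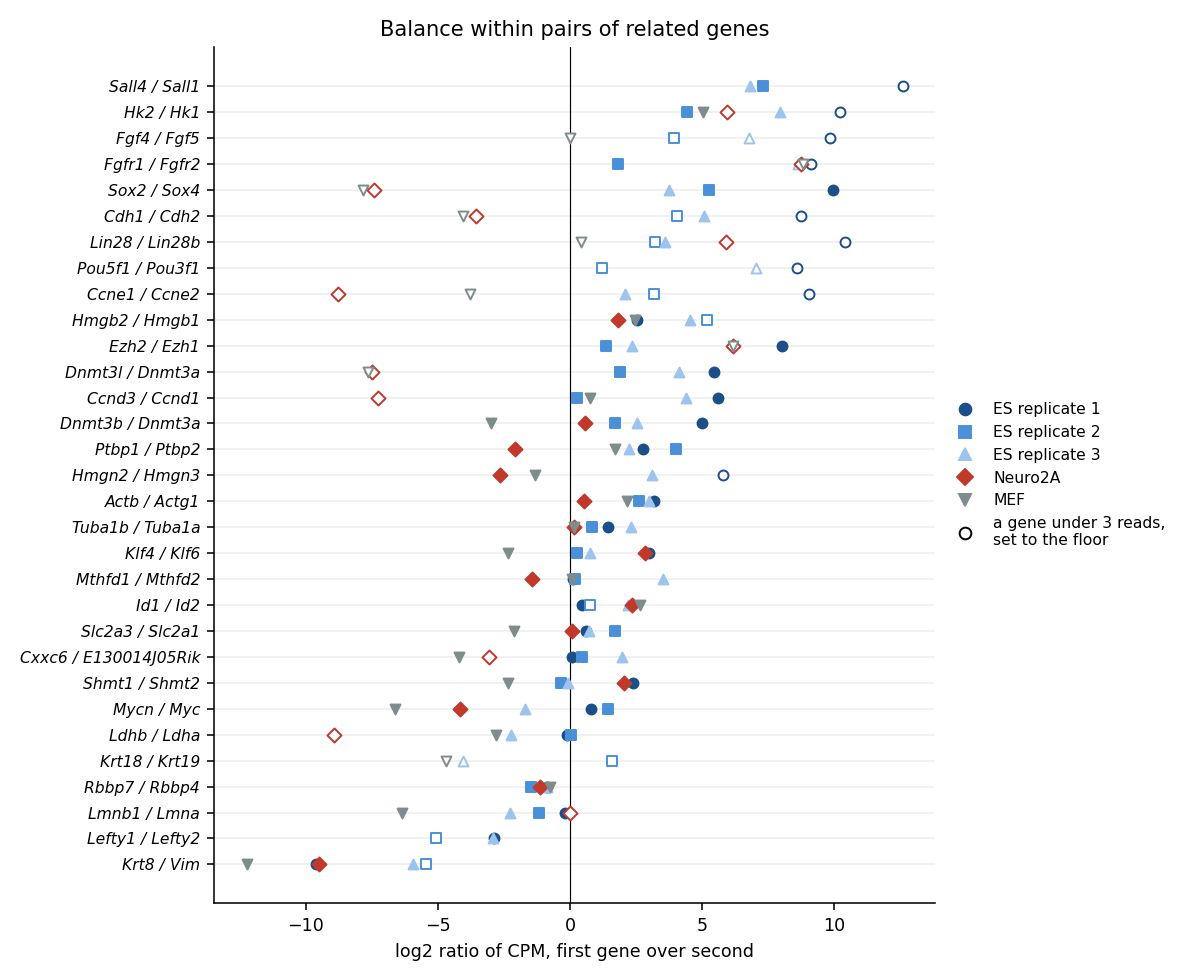
Log2 ratio of CPM within pairs of related genes, with 1 point per plate, sorted by the ES mean, and open symbols where a gene had under 3 reads and was set to the floor. Cdh1 over Cdh2 and Sox2 over Sox4 separate the ES plates from Neuro2A and MEF, whereas Klf4 over Klf6 and Rbbp7 over Rbbp4 overlap.

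The ES plates differed from each other more than the markers alone show. Of 1270 genes with at least 200 CPM in ES replicate 1 or 2, 699 (55.0%) were within 2-fold between them, and 466 (36.7%) were within 2-fold over all 3. A difference of 10-fold or more placed 16 genes higher in replicate 1 and 17 higher in replicate 2. The 10 largest on the side of replicate 2 were mostly long genes read in few wells. Phactr1 stood at 0, 209 and 0 CPM in ES replicates 1, 2 and 3, from 2 wells, and Scn2a1, a neuronal sodium channel, at 0.404, 264 and 0 CPM, with 94.5% of its ES replicate 2 reads in that plate's deepest well. Ank3 had 81.7% of them there and Magi1 74.4%. Their median genomic span was 125 kb, against 8.06 kb for 9 of the 10 largest on the side of replicate 1.

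The deepest well of ES replicate 2 read longer genes by the median. The median read fell on a gene of 24.9 kb there, against 14.4 kb in the other 65 wells of the plate, 15.0 kb in ES replicate 1 and 13.04 kb in replicate 3. In Neuro2A and MEF it was 20.1 and 19.3 kb. These medians cover the 87.0% to 92.7% of gene reads whose gene had a span in RefSeq, and no other well was taken alone. On the side of replicate 1, Idh3g, a subunit of isocitrate dehydrogenase, stood at 861, 37.7 and 56.2 CPM, and 1 well gave 63.9% of its reads in ES replicate 1. Skil and Plec1 differed otherwise, being at 0 in ES replicate 1 and at 314 and 255 CPM in replicate 2 and 347 and 634 CPM in replicate 3, from 6 and 2 wells of replicate 2 and 26 and 19 of replicate 3. MEF held 1021 CPM of Skil and 4011 CPM of Plec1, and ES replicate 3 carried 10.8% of MEF's reads over fibroblast genes. The part of carried-over reads in both genes was not tested.

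**Figure D5:**
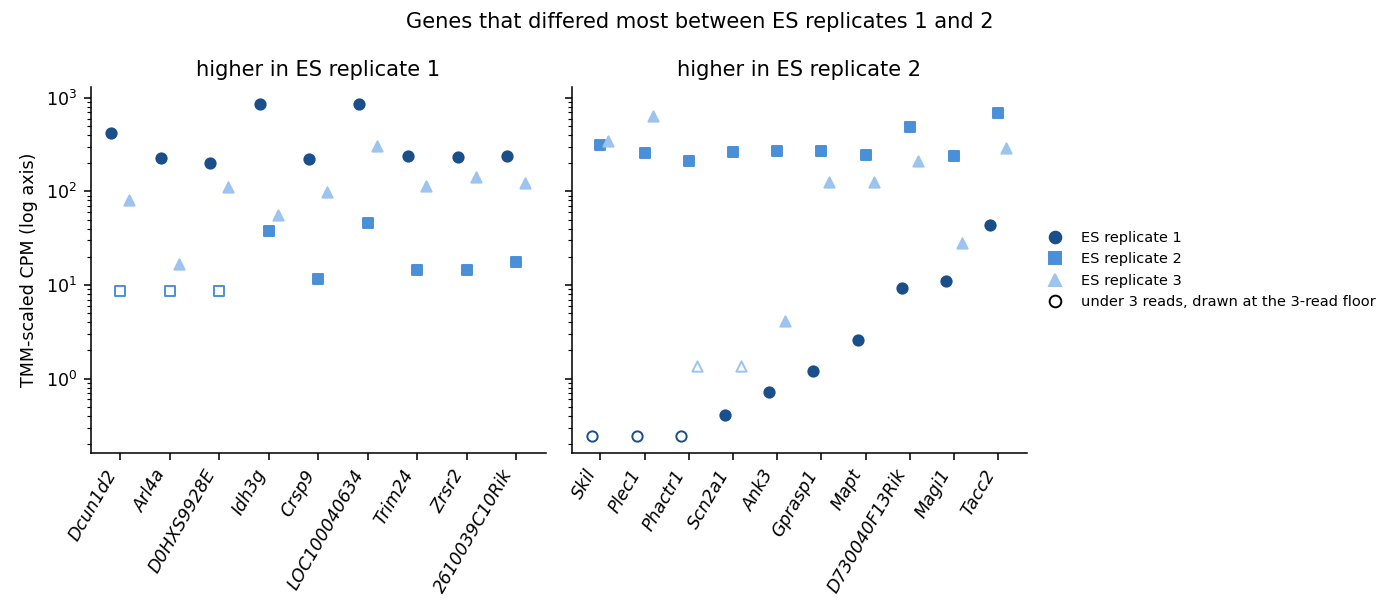
Levels in the 3 ES plates of genes among the 10 each way with the largest ratio between ES replicates 1 and 2, in TMM-scaled CPM on a log axis, with open symbols at the 3-read floor. ES replicate 3 lies between the other plates for most genes, and Skil and Plec1 are at 0 reads in replicate 1 but above 200 CPM in both others, with MEF, not drawn, at 1021 and 4011 CPM.

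Breadth was alike in order of size. In every ES plate 5244 genes, 33.6% of 15585, reached 10 CPM, 621 of them predicted models. Of these 1191 reached 100 CPM and 29 reached 1000 CPM in every plate. The 100 most read genes of a plate took 18.6%, 16.3% and 19.01% of its gene reads, a mean of 17.99 ± 1.44% (SD, n = 3), against 18.9% in Neuro2A and 24.3% in MEF. At 1000 reads the median well held 412, 551.5 and 611.5 genes, a mean of 525 ± 102 (SD, n = 3), against 451 in Neuro2A and 524 in MEF, so the ES plates spread over both other cell types.

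At 1000 reads per well, 753 genes were read in at least 10% of the wells of every ES plate, 205 in at least 25% and 36 in at least 50%. Ptma, prothymosin alpha, a small acidic nuclear protein, was the steadiest by its lowest plate, in 84.9%, 84.8% and 84.0% of wells, against 76.7% in Neuro2A and 55.4% in MEF. Rpl32, Rpl4, Gnb2l1, Rpl8 and Rpl35 followed, with Rps3 and 2 predicted models. Rpl4, Rps3 and, by a small margin, Rpl8 were read in more wells in every ES plate than in both other plates. Rpl32, Gnb2l1 and Rpl35 overlapped the other plates. Rpl35 was read in 68.8%, 93.9% and 96.8% of ES wells, against 87.2% of Neuro2A and 98.9% of MEF wells. Eif2s2, a subunit of the initiation factor that delivers the first methionine, was read in 75.3%, 68.2% and 80.9% of ES wells, against 31.4% of Neuro2A and 33.7% of MEF wells. Its level stood at 2501, 990 and 2712 CPM in ES, against 777 and 946, above both in every ES plate.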

How the data were processed

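Whole-number raw read counts per feature and barcode were deposited by the authors, per the deposited readme. The submitters' processing notes name Bowtie. Its version, the genome build and the gene models used were not given in the sources used here. Each plate had 116 barcode columns, 20 of them empty. Repeat and mitochondrial rows were left out, and wells under 1000 gene reads, 35 in ES, were dropped. No doublet caller was run, since cells were sorted 1 per well. Reads were summed per plate. edgeR 4.0.16 fitted group means with TMM, filterByExpr and Benjamini-Hochberg adjustment at 0.05, with DESeq2 1.42.0 and limma 3.58.1 as alternatives (R 4.3.3). Python 3.11.15, numpy 2.4.6, pandas 2.3.3 and scipy 1.17.1 did the rest. For folds against 0 reads, each plate was set to 3 reads. Wells were thinned to 1000 reads with a fixed seed. The fit was tested on simulated data. Named genes were the 7 markers, the 25 highest ES means, the 20 and 10 most extreme genes of the 10-fold rules, 10 each way between ES replicates 1 and 2, the 10 read in the largest share of wells, and members of 18 gene lists and 32 pairs, with older symbols matched through RefSeq synonyms. Predicted models were passed over, and a few genes that these rules name are not reported here. Members, lists and rules were chosen with earlier results of these data known.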

Additional observations from a re-analysis of the deposited data

Results flagged for a closer look

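The wells left out for having under 1000 gene reads still carried ES markers. In ES replicate 2, 21 of 30 such wells held a read of at least 1 of the 7 markers, and the markers took 6597 of 1000000 gene reads there, against 6567 in its kept wells. Left-out wells of ES replicates 1 and 3 gave 4019 and 7073 on the same scale, from 3 and 2 wells, and those of Neuro2A and MEF held 0 marker reads. Repeat rows, which no comparison used, took 82.4% of all reads in ES replicate 2 and 40.0% in ES replicate 3, above Neuro2A (24.6%) and MEF (23.02%), while ES replicate 1 had 26.1%.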

How the results depend on the processing

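The sign of all 7 markers held in every one of 18 alternatives per marker, and 72 of 126 such values passed the threshold. Genes called higher in ES against the rest numbered 0 in edgeR and 23 with DESeq2-type size factors, 113 with library size alone, 186 with no filter, 867 with DESeq2, 238 with thinned wells, 35 without the deepest well of ES replicate 2, 40 with carried-over reads subtracted, 14 without barcodes ending in G, 33 with mitochondrial genes and 21 at 2000 gene reads. Leaving out 1 ES plate gave 0 to 887, the highest without ES replicate 1, with 1 residual degree of freedom. Genes called lower numbered 7 with no filter, 92 with DESeq2, 106 thinned, 3 subtracted and 0 to 337 with 1 plate left out, the highest again without ES replicate 1. The cause was not tested. The median log2 fold change of all tested genes was 0.63, and -0.21 with limma-voom, -0.23 with Neuro2A and MEF as 1 group and -0.080 against MEF alone. With library size alone it was 1.10.

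Genes at least 10-fold higher in ES (162) numbered 11 thinned, 45 at 100 CPM and 218 to 270 with 1 plate left out. Genes at least 10-fold lower (74) numbered 9 thinned, 49 subtracted, 35 without barcodes ending in G, 137 at 5-fold, 31 with library size alone (chosen after seeing the data) and 55 to 118 with 1 plate left out. Thinning lowers both by construction, since 3 reads then weigh more. Genes per well were 330 thinned to 500 reads and 821 thinned to 2000, and 482 to 582 with 1 plate left out. Genes expressed in every ES plate stayed within 1.5 times of 5244, and the share of the 100 most read genes within 1 SD, in all alternatives run. The list counts without a plate, by scaling and subtracted were also chosen after seeing the data. No paired analysis was possible because replicate numbers were given in accession order and Neuro2A and MEF have 1 plate each. Depth limits ES replicate 2 most: 3 of its reads are 8.71 CPM.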
